A study of Mus musculus with 8 samples.

Results

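NF-kappaB is a family of transcription factors built as dimers of Rel, Rela, Relb and the products of Nfkb1 and Nfkb2. In resting cells IkappaB proteins, among them those coded by Nfkbia, Nfkbib and Nfkbie, hold the dimers in the cytoplasm, and kinases that answer antigen receptors, costimulatory receptors and cytokines release them. Several of the inhibitors are themselves NF-kappaB target genes and close a feedback loop, and in T cells c-Rel, the product of Rel, is known for driving the activation programme after antigen and CD28 signals. The 10 genes described here code for NF-kappaB subunits (Rel, Rela, Relb, Nfkb1, Nfkb2), inhibitors (Nfkbia, Nfkbib, Nfkbie, Tnfaip3) and an upstream kinase (Map3k8). They were taken by name, with every probe set whose single gene symbol in the platform annotation is one of them. This gave 13 probe sets for 9 of the 10 genes, of 12393 genes that have such a probe set on the array: 4 for Nfkbia, 2 for Nfkb2 and 1 for each of 7 others. Nfkb1 is not analysed here.

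RNA came from stable T cell lymphoma lines of the mouse that lack Snf5, which belongs to the chromatin remodelling machinery known as SWI/SNF, and both groups share that deficiency. Cells had been purified by surface CD44, a hyaluronan receptor of activated and memory T cells, into CD44hi (4 arrays) and CD44lo (4 arrays), and the question of the comparison is how expression differs between the 2 subpopulations. The labels name no treatment, strain or animal age, and do not say how many lines were used or whether replicates came from separate cultures, so p-values speak of array-to-array spread alone, and that may be technical. The values are Affymetrix Mouse 430A 2.0 intensities on the log2 scale, where a difference of 1 is 2-fold.

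Array medians lay between 320 and 339 in intensity, and precision is limited by having 4 arrays a group. Both Cd44 probe sets differed in the direction of the labels (log2 differences of 7.99 and 5.89), which checks the sort and is no finding. Of the T cell markers Cd3e (13.06 and 13.10) and Cd8a (13.86 and 13.87) were high in CD44hi and CD44lo, while Thy1 (4.47 and 4.55), Cd5 (4.32 and 4.29) and Cd4 (5.23 and 5.17) were under 5.27, which is the 25th percentile over every value, so these T cell markers were not seen above the dim range. Arrays numbered 1 and 3 resembled each other in both groups, and likewise those numbered 2 and 4. Each result below is therefore given with the differences at the single numbers or with the replicate number as a block where that changes it.

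The promoters of 4 members (Rel and Nfkbib, which were called, and Nfkb2 and Nfkbia, called in some of the fits) are shown first, because several of these genes are known to carry sites for the factor they encode or inhibit. Each line gives the 250 bases 5′ of the transcript start on the gene's own strand, 5′ to 3′, from the RefSeq table of assembly GRCm38.p6, with capitals marking matches to the 10-base kappaB consensus on either strand. Matches that overlap, or that read as a match on both strands, merge into 1 run of capitals.
Rel, chr11:23770970-23771219, minus strand: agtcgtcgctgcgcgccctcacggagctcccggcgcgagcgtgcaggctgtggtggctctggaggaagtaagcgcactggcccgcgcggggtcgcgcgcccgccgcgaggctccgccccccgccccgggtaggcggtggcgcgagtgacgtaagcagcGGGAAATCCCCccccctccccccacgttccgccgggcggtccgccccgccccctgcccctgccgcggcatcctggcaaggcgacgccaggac
Nfkb2, chr19:46304487-46304736, plus strand: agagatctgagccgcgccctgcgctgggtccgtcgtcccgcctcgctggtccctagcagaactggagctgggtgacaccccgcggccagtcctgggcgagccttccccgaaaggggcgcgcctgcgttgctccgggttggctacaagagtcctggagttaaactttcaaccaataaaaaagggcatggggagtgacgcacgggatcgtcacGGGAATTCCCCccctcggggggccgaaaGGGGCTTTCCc
Nfkbia, chr12:55492648-55492897, minus strand: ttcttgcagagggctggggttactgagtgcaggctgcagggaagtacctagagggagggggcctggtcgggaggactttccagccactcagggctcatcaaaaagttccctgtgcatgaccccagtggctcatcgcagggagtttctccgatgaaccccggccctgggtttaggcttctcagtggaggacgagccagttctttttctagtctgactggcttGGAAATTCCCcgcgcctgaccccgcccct
Nfkbib, chr7:28766645-28766894, minus strand: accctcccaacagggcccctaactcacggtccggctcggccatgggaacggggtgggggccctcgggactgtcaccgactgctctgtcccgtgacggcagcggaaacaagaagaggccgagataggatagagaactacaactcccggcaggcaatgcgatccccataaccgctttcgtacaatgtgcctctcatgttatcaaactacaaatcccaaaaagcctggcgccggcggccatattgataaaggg

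The Rel window holds 1 run of matches that begins 92 bases before the start, the Nfkb2 window runs that begin 39 and 11 bases before it, and the Nfkbia window 1 match at 29 bases. The Nfkbib window holds none of these letter patterns. Windows of 7 member genes were searched, 10 in all, those of Map3k8 and Relb not being used here. A match was found for 5 of these genes (Rel, Nfkb2, Nfkbia, Nfkbie and Tnfaip3), in 7 of the 10 windows. The Nfkb2 window shown is the first of 3, with 4 matches, and windows 2 and 3 of that gene held 1 match each. A match was present in 7.25% of all 32851 windows of this length. A match is a description of letters and does not show that a factor binds there.

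Of the 13 probe sets, 3 were higher in CD44hi after adjustment over all 22626 probe sets (limma, Benjamini-Hochberg adjusted p under 0.05), or 23.1%, and 0 were lower. Over all probe sets 1.64% were called higher and 1.48% lower. Those called were Rel, the inhibitor Nfkbib and the kinase Map3k8. A further 8 had a positive difference that did not pass, and Rela and Tnfaip3 had a small negative one. At an unadjusted p under 0.05 the counts were 9 higher and 0 lower, or 69.2% of the 13 against 11.8% of all probe sets in both directions together. The median difference was 0.37, against -0.0011 for all probe sets. In 7 of the 13 all CD44hi values lay above all CD44lo values, which held for 4.73% of all probe sets. With the replicate number as a block 4 were called higher, the addition being Nfkbia with its probe set 1448306_at, against 2.52% of all. The 4 Nfkbia probe sets read the same transcript, so these counts are not of independent genes. The members and the gene lists below were chosen with earlier results of these data known. Their shares beside those of all probe sets are therefore a description and no test. Averaging arrays 1 and 3, and 2 and 4, as 1 sample each left 0 of the 13 called (limma; 5 were higher and 0 lower at an unadjusted p under 0.05). That fit called 14 higher and 2 lower of all 22626 probe sets, so its 0 alone says little about the members. With these averages and the number set as a block, a fit added after the data were seen, 209 were called higher and 174 lower of all. Of the 13 member probe sets that fit also called 0, with limma adjusted p of 0.135 for Rel, 0.104 for Nfkbib and 0.167 for Map3k8.

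**Figure D1:**
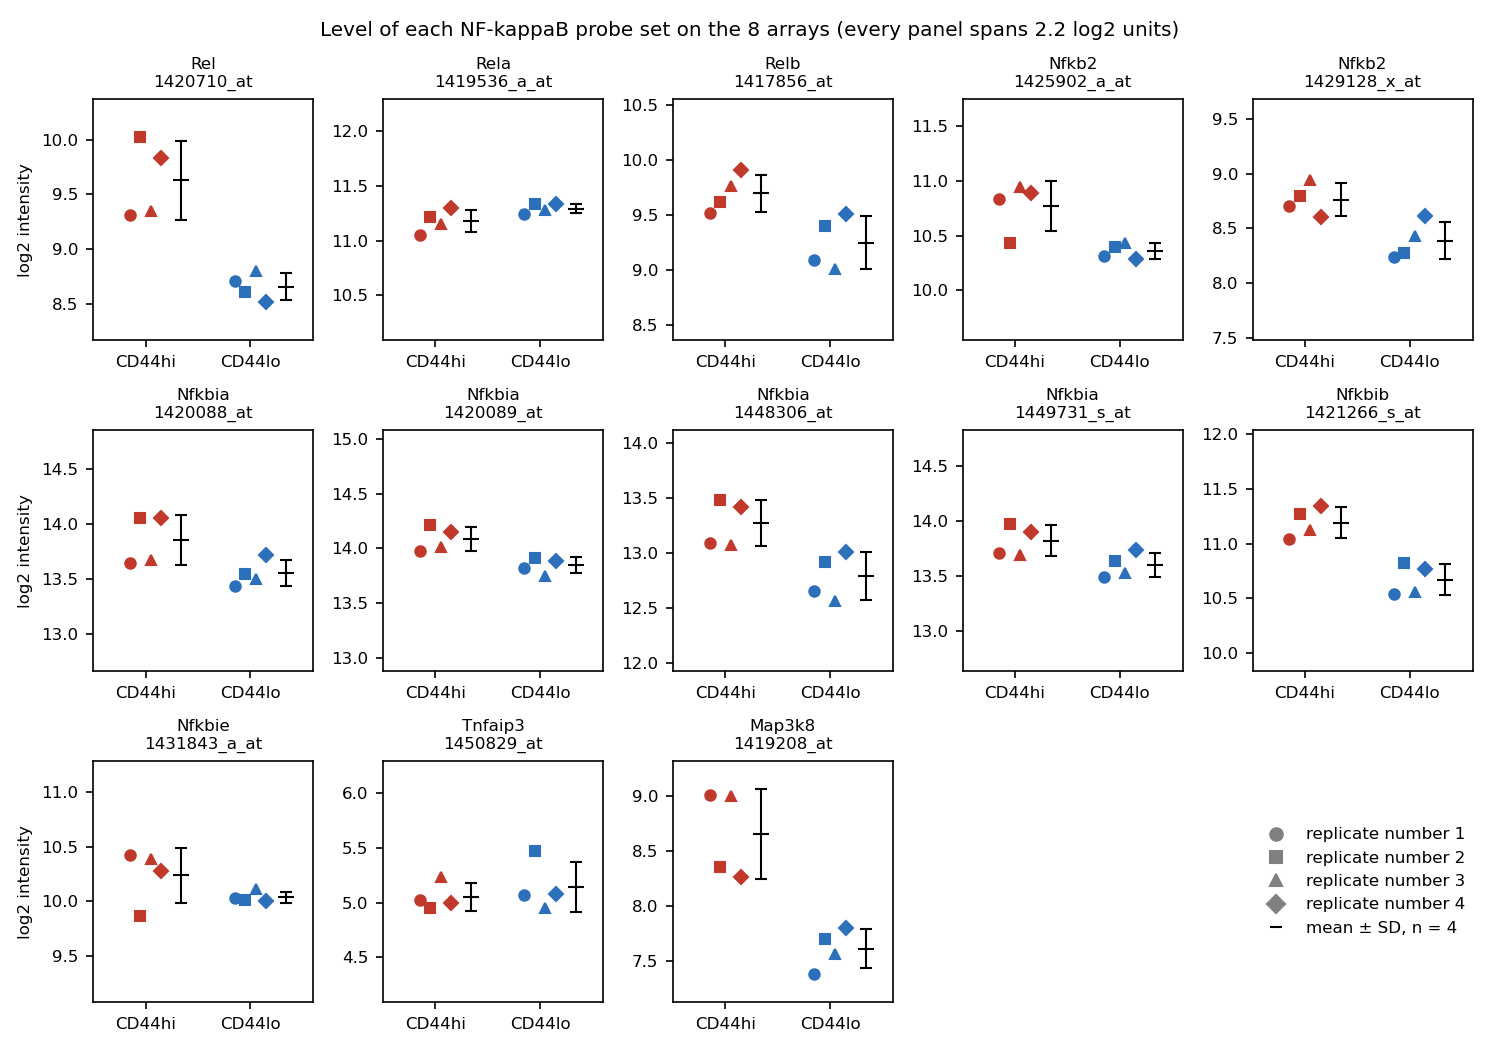
Log2 intensity (vertical axis) of the 13 probe sets of 9 NF-kappaB genes on the 4 CD44hi (red) and 4 CD44lo (blue) arrays, with the marker shape giving the replicate number and the black bar the mean ± SD (n = 4). Rel, Map3k8 and Nfkbib stand apart without overlap. So do Relb, Nfkb2 1425902_a_at and Nfkbia 1420089_at and 1448306_at, which did not pass in the main fit. The remaining probe sets, among them Rela and Tnfaip3, overlap.

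Among the subunits, Rel codes for c-Rel, which carries a transactivation domain. Its log2 intensity in CD44hi replicates 1 to 4 was 9.31, 10.02, 9.35 and 9.83, and in CD44lo 8.71, 8.61, 8.80 and 8.52. The groups did not overlap, and within CD44hi arrays 2 and 4 were the high ones. The means were 9.63 ± 0.36 and 8.66 ± 0.12 (SD, n = 4 each), so Rel rose 1.96-fold in CD44hi (log2 difference 0.97, SE 0.17, 95% interval 0.59 to 1.35, limma adjusted p = 0.0142). With the replicate block the limma adjusted p rose to 0.0261 and the call held. Without CD44lo replicate 2 or 4 the call was lost, with limma adjusted p of 0.0523 and 0.0562. As the arrays read RNA of whole populations, more cells with the transcript and more transcript per cell cannot be told apart, here and for the other members.

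Rela codes for p65, the main activating subunit of the canonical pathway. Its CD44hi values were 11.05, 11.21, 11.15 and 11.30 and its CD44lo values 11.24, 11.33, 11.28 and 11.33. The ranges overlapped, although CD44hi was the lower array at each of the 4 numbers. The log2 difference was -0.12 (95% interval -0.29 to 0.06, limma adjusted p = 0.678), and it did not pass.

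Relb and Nfkb2 code for the partners of the noncanonical pathway, RelB and the p100 precursor of p52. For Relb the CD44hi arrays read 9.52, 9.62, 9.77 and 9.91 and the CD44lo arrays 9.09, 9.40, 9.01 and 9.51. Every CD44hi array was above every CD44lo array, by very little between CD44hi replicate 1 and CD44lo replicate 4. The log2 difference was 0.45 (SE 0.14, 95% interval 0.14 to 0.76) and did not pass (limma adjusted p = 0.158, or 0.0596 with the replicate block).

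Both Nfkb2 probe sets had similar differences that did not pass. With 1425902_a_at the CD44hi arrays read 10.83, 10.43, 10.94 and 10.89 and the CD44lo arrays 10.31, 10.40, 10.43 and 10.29. CD44hi replicate 2 was low and close to the CD44lo arrays, and the other arrays of the group were clear of them. The log2 difference was 0.42 (SE 0.12, limma adjusted p = 0.126), and without CD44hi replicate 2 it was 0.53 and passed (limma adjusted p = 0.0118). With 1429128_x_at, whose suffix marks probes that can match other sequences, CD44hi spanned 8.60 to 8.94 and CD44lo 8.24 to 8.61, an overlap set by replicate 4 of both groups, and the log2 difference was 0.37 (SE 0.11, limma adjusted p = 0.151).

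**Figure D2:**
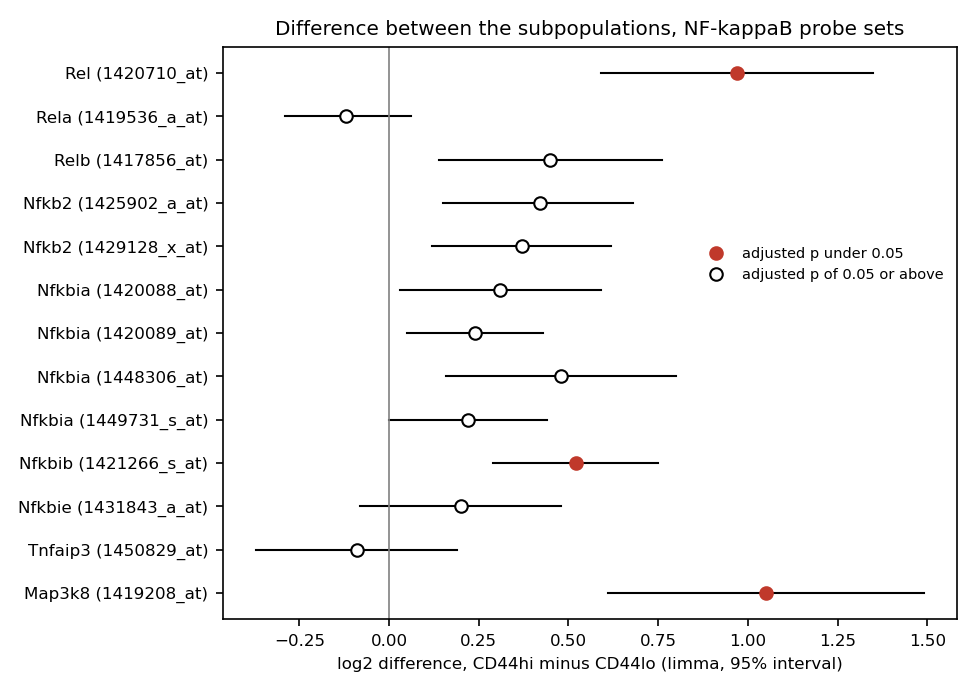
Log2 difference of CD44hi minus CD44lo (horizontal axis) for each of the 13 probe sets with its 95% limma interval. Filled red points passed at adjusted p under 0.05 (Rel at 0.97, Nfkbib at 0.52, Map3k8 at 1.05), and open points did not.

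Among the inhibitors, Nfkbib codes for IkappaB-beta, which binds Rela and Rel dimers in the cytoplasm. The CD44hi arrays read 11.04, 11.27, 11.12 and 11.34 and the CD44lo arrays 10.54, 10.82, 10.56 and 10.77. The groups did not overlap, and in both the arrays numbered 2 and 4 were the higher ones. Nfkbib rose 1.44-fold (means 11.19 ± 0.14 and 10.67 ± 0.14, SD, n = 4 each; log2 difference 0.52, SE 0.10, limma adjusted p = 0.0274). The difference at the 4 numbers was 0.50, 0.46, 0.56 and 0.57, the most even of the called members, and the block lowered the adjusted p to 0.00873. Leaving out 1 array ended the call for 6 of the 8 arrays: the limma adjusted p was 0.0774, 0.0574 and 0.0594 without CD44hi replicates 2, 3 and 4, and 0.0889, 0.0964 and 0.0617 without CD44lo replicates 1, 3 and 4. The suffix of its probe set, 1421266_s_at, marks probes shared with another transcript.

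Nfkbia codes for IkappaB-alpha, the inhibitor that NF-kappaB induces quickly and that is degraded on activation, so its transcript is often read as a sign of the feedback. With 1448306_at the CD44hi arrays read 13.09, 13.48, 13.07 and 13.42 and the CD44lo arrays 12.65, 12.92, 12.56 and 13.01. Arrays 2 and 4 were the high ones in each group, by 0.37 and 0.36, and every CD44hi array was above every CD44lo array. The log2 difference was 0.48 (SE 0.14, 1.39-fold), which did not pass (limma adjusted p = 0.140) but passed with the replicate block (SE 0.07, limma adjusted p = 0.0125). At the single numbers it was 0.44, 0.55, 0.51 and 0.41.

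The remaining Nfkbia probe sets gave smaller differences of the same sign. With 1420088_at CD44hi spanned 13.64 to 14.05 and CD44lo 13.43 to 13.72, with a log2 difference of 0.31. With 1420089_at CD44hi spanned 13.98 to 14.21 and CD44lo 13.75 to 13.91 without overlap, with a difference of 0.24. With 1449731_s_at the difference was 0.22. These did not pass, with limma adjusted p of 0.355, 0.232 and 0.425, or 0.109, 0.117 and 0.166 with the replicate block. All 4 probe sets were higher in CD44hi at all 4 numbers. Over all members this held for 9 of 13 probe sets, and over the whole array for 13.2%.

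Nfkbie codes for IkappaB-epsilon, another cytoplasmic inhibitor. CD44hi replicates 1 to 4 read 10.42, 9.87, 10.39 and 10.28 and CD44lo 10.03, 10.01, 10.11 and 10. CD44hi replicate 2 was below all CD44lo arrays and the rest of the group above them. The same array was the low one for Nfkb2 with 1425902_a_at, but not with 1429128_x_at, where it read 8.80 and replicate 4 was lowest. The log2 difference was 0.20 (95% interval -0.08 to 0.48, limma adjusted p = 0.633).

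Tnfaip3 codes for A20, a ubiquitin-editing enzyme that shuts the pathway down. Its single probe set was dim, with CD44hi arrays at 5.02, 4.95, 5.23 and 5.0 and CD44lo arrays at 5.07, 5.47, 4.95 and 5.08. Every array but CD44lo replicate 2 was under the 25th percentile of 5.27, and the groups overlapped. The log2 difference of -0.09 (95% interval -0.37 to 0.19, limma adjusted p = 0.894) turned to 0.02 without CD44lo replicate 2 and to 0.02 with array weights, so no direction is given for Tnfaip3.

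The kinase Map3k8, also known as Tpl2, acts on the p105 product of Nfkb1 and on the ERK pathway. CD44hi replicates 1 to 4 read 9.01, 8.35, 9.0 and 8.26 and CD44lo 7.38, 7.70, 7.56 and 7.80. The groups did not overlap, and CD44hi arrays 1 and 3 were the high ones, whereas for Rel they were the low ones. Map3k8 rose 2.07-fold (means 8.65 ± 0.41 and 7.61 ± 0.18, SD, n = 4 each; log2 difference 1.05, SE 0.19, 95% interval 0.61 to 1.49, limma adjusted p = 0.0207). With the replicate block the limma adjusted p rose to 0.0411 and the call held. The call was lost without CD44hi replicate 3 or CD44lo replicate 1, 2 or 3, with limma adjusted p of 0.0536, 0.0685, 0.0582 and 0.0725.

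The 2 largest differences thus depended on the replicate number in opposite ways. For Rel the difference was 0.60 and 0.55 at numbers 1 and 3 and 1.41 and 1.32 at numbers 2 and 4, or 1.49-fold and 2.58-fold on average. For Map3k8 it was 1.63 and 1.44 at numbers 1 and 3 and 0.65 and 0.46 at numbers 2 and 4. A limma interaction of group with number (2 and 4 against 1 and 3), fitted over all probe sets, called Map3k8 (log2 difference of differences -0.98, SE 0.13, adjusted p = 0.0332) and not Rel (0.79, SE 0.14, adjusted p = 0.0573). It called 0.857% of all probe sets, and 1 of these 13. That grouping of the numbers came from the resemblance of arrays and not from the labels, which do not say what a number stands for. Within numbers 1 and 3 alone 5 of the 13 probe sets were called higher (Rel, Map3k8, Nfkbib, Nfkb2 1425902_a_at and Nfkbia 1448306_at), and within numbers 2 and 4 alone Rel was the 1 called. Over all 22626 probe sets these 2 fits called 561 and 429 higher. Nfkbib was higher on arrays 2 and 4 than on 1 and 3 by 0.23 in CD44hi and 0.24 in CD44lo, with an interaction of -0.01 (SE 0.11, limma adjusted p = 0.976).

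**Figure D3:**
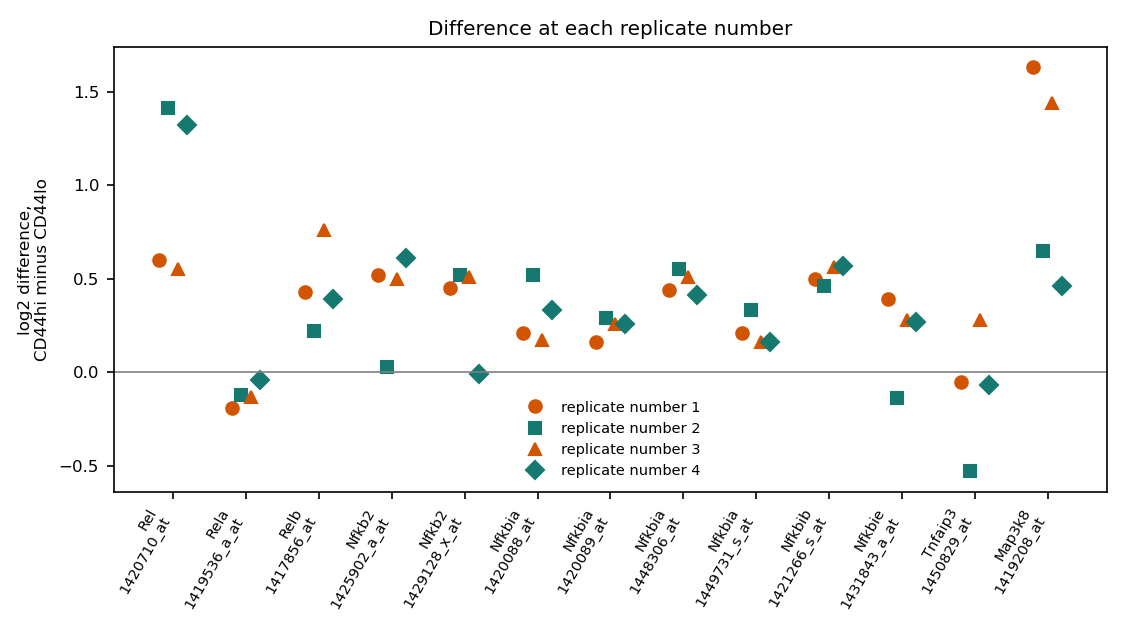
Log2 difference of CD44hi minus CD44lo (vertical axis) at each replicate number for the 13 probe sets, with numbers 1 and 3 in orange and 2 and 4 in green. Rel is higher at numbers 2 and 4 (1.41 and 1.32), Map3k8 at 1 and 3 (1.63 and 1.44), and the 4 points of Nfkbib lie between 0.46 and 0.57.

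The genes whose pattern over the 8 arrays was most like that of Rel were Tubb3, a neuronal beta-tubulin (Pearson's r = 0.997), Vti1b (0.990), Ppp2r1b (0.985), Sntb2 (0.984) and Isy1 (0.983), each by its probe set with a mean above the median of all. The 8 points share the group difference and the pattern of the numbers, so these values are a description. Tubb3 rose by 1.36 on the log2 scale (0.85 at numbers 1 and 3, 1.87 at numbers 2 and 4; limma adjusted p = 0.00673) and Sntb2 by 1.84 (1.27 and 2.41; limma adjusted p = 0.0061). Vti1b, Ppp2r1b and Isy1 had differences of 0.13, 0.40 and 0.29 that did not pass.

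The receptors that feed the pathway were read from a list of 22 genes with 34 probe sets. Of these, 2 passed as higher in CD44hi, or 5.88% against 1.64% of all probe sets, and 0 as lower (limma adjusted p under 0.05). At an unadjusted p under 0.05 by limma, 5 were higher and 4 lower, where 11.8% of all probe sets passed in both directions together. The median difference was -0.045. Tnfrsf4, the costimulatory receptor OX40, rose from 11.83 ± 0.16 to 13.28 ± 0.05 (SD, n = 4 each; log2 difference 1.46, limma adjusted p = 4.46e-05). Tnfrsf18, the receptor GITR, rose from 10.99 ± 0.15 to 12.03 ± 0.08 (log2 difference 1.04, limma adjusted p = 3.84e-04). With the replicate block 1 of 3 Il1rap probe sets also passed as higher (1449585_at, log2 difference 0.71, limma adjusted p = 0.0345) and the interleukin-18 receptor chain Il18r1 as lower (log2 difference -0.76, limma adjusted p = 0.029), against 2.63% of all probe sets lower in that fit. Cd28, the costimulatory receptor most tied to c-Rel, had differences of -0.29 (1417597_at) and -0.25 (1437025_at) that did not pass. With 1437025_at every CD44hi array was below every CD44lo array (limma unadjusted p = 0.0356, adjusted p = 0.357). With 1417597_at the groups overlapped (limma adjusted p = 0.682).

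The adaptors and kinases between receptors and IkappaB formed the next list. Of 27 listed genes 20 were measured with 43 probe sets, and the median difference was -0.040. At an unadjusted p under 0.05 by limma, 2 were higher and 1 lower, where 11.8% of all probe sets passed in both directions together. After adjustment 2 were called higher, or 4.65% against 1.64% of all probe sets, and 0 lower. Both called probe sets belong to Prkcb, which codes for a protein kinase C, with log2 differences of 0.58 and 0.64 (limma adjusted p = 0.00235 and 0.00149). The IkappaB kinase subunits Ikbkb and Ikbkg had differences of -0.34 to -0.04 and -0.03 to 0.13, and Map3k14, the kinase of the noncanonical pathway, of 0.01 with both probe sets.

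Of 19 other inhibitors and atypical IkappaB genes 12 were measured with 18 probe sets. Of these 2, both of the same gene, were called higher (11.1% against 1.64% of all probe sets) and 1 lower (5.56% against 1.48%). Nfkbiz, which codes for the nuclear protein IkappaB-zeta, was called with both of its probe sets (log2 differences 0.36 and 0.53, limma adjusted p = 0.0471 and 0.0492), and both calls were lost with the replicate block (limma adjusted p = 0.0578 and 0.0555). Otud7b, a deubiquitinase, fell by 0.63 (limma adjusted p = 0.015).

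Of 54 listed NF-kappaB target genes 51 were measured with 89 probe sets. Called higher were 5 probe sets of 5 genes, or 5.62% against 1.64% of all probe sets, and 0 lower. At an unadjusted p under 0.05 by limma, 13 were higher and 0 lower, where 11.8% of all probe sets passed in both directions together. The median difference was 0.10, and 69 of the 89 had a positive difference against 49.6% of all probe sets. The chemokine genes Cxcl10 and Ccl5 rose by 4.18 (18.1-fold) and 2.14, the homing receptor Ccr7 by 1.88 and the activation marker Cd83 by 1.59. The survival gene Bcl2l1 rose by 0.70 with 1 of its 4 probe sets, and the others did not pass (0.13, 0.27 and 0.40). With the replicate block 8 were called higher, where 2.52% of all probe sets were. The additions were Cflar (1449317_at, log2 difference 0.48, limma adjusted p = 0.0276), Gadd45b (1420197_at, 0.42, limma adjusted p = 0.0495) and Lta (0.64, limma adjusted p = 0.0273). The other probe sets of Cflar (0.14, 0.18 and 0.10) and Gadd45b (0.37 and 0.21) did not pass with the block. Many of these genes also answer to other factors, and the list was written with earlier results of these data known.

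**Figure D4:**
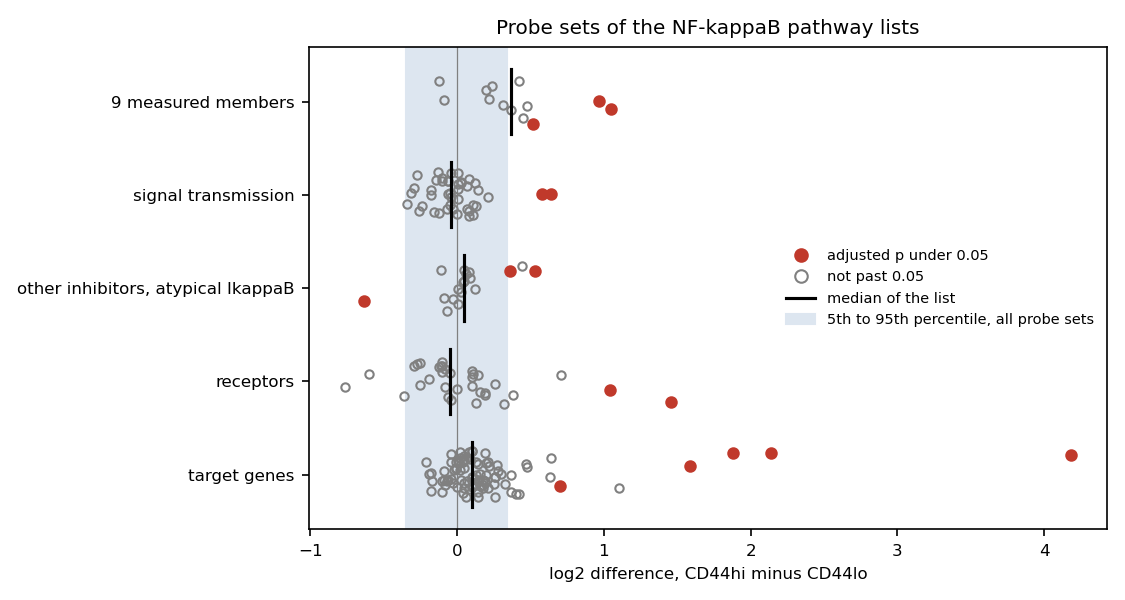
Log2 difference of CD44hi minus CD44lo (horizontal axis) of each probe set in the 9 measured members and 4 pathway lists (rows), with red points at adjusted p under 0.05, a black bar at each list's median and a shaded band from the 5th to the 95th percentile of all probe sets (-0.35 to 0.34). The median is 0.37 for the members and runs from -0.045 (receptors) to 0.10 (target genes) for the lists, and the band describes single probe sets, not medians.

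Values that moved beside these results are given here. RNA integrity was read from control probe sets at both ends of Gapdh, whose 3′ over 5′ log2 ratio averaged 0.816 (SD 0.0517) for CD44hi and 0.696 (SD 0.0361) for CD44lo. By an exact permutation test, two-sided, this gave p = 0.0286 with 4 arrays a group, the smallest that 70 assignments allow. For Actb the ratios were 0.626 (SD 0.152) and 0.498 (SD 0.105), and the same exact test gave p = 0.229. For the marker lists that follow, 11.8% of all probe sets had an unadjusted p under 0.05 by limma, both directions together. Of 15 probe sets of B cell markers 0 were called (3 higher and 0 lower at an unadjusted p under 0.05 by limma). The log2 of their summed intensity spanned 8.91 to 9.23 in CD44hi and 8.84 to 8.95 in CD44lo. The higher ones were both Ms4a1 probe sets (1450912_at at 4.99 ± 0.83 and 3.68 ± 0.20 without overlap, log2 difference 1.31, limma adjusted p = 0.11; 1423226_at at 4.61 and 3.83) and 1 of Fcrla (5.29 and 4.99), with group means that, apart from Fcrla in CD44hi, were all under 5.27, while Cd79a was at 5.32 and 5.49. Of 21 probe sets of myeloid and dendritic cell markers 0 were called (1 higher and 0 lower at an unadjusted p under 0.05 by limma), with summed levels of 10.19 to 11.11 and 10.19 to 10.79. The higher one was Batf3 (6.19 and 5.83, without overlap), the brightest was Cd68 (9.18 and 8.98), and Itgax was at 4.64 and 4.62. Of 18 probe sets of stromal and endothelial markers 3 were called higher, or 16.7% against 1.64% of all probe sets, and 0 lower (1 at an unadjusted p under 0.05 by limma). Those called were of Pdgfra (9.47 and 6.5 with the brighter probe set) and Pecam1 (10.02 and 9.04). The summed levels were 12.84 to 13.33 and 12.81 to 13.07, with Col3a1 at 4.72 and 4.88 with the brighter of its probe sets. Of 13 probe sets of T cell markers 0 were called (0 higher and 1 lower at an unadjusted p under 0.05 by limma), with summed levels of 16.33 to 16.36 in CD44hi and 16.36 to 16.46 in CD44lo. The part of RNA quality and of these cell types in the differences of the NF-kappaB genes was not tested.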

How the data were processed

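Expression was measured on 8 single-colour arrays, 4 of CD44hi and 4 of CD44lo, grouped and numbered by their titles. The authors summarised each probe set to an intensity with RMA, per the labels' protocols, with version and options not given in the sources used here. They lie on a linear scale, so log2 was taken with no pseudocount. RMA draws values near background together, so folds of dim probe sets may be understated. Of 22690 probe sets 64 controls were left out, and 22626 were tested in R 4.3.3 with limma 3.58.1 (lmFit, eBayes). Group was the single term, and p-values were adjusted by Benjamini-Hochberg across all of these. The fit was tested on simulated data whose noise was independent between arrays, unlike the pattern of odd and even numbers seen here. Added log2 differences of 0.5, 1 and 2 were recovered in 43.3%, 74.6% and 97% of cases, and 6.54% of calls were false. Differences near 0.5 were thus often missed in that simulation. Probe sets were named through the platform annotation, where 20380 have 1 symbol. The members and gene lists were chosen with earlier results of these data known. Genes named are the members, the called probe sets of each pathway list, and the 5 genes most correlated with Rel. Other genes named (Cd28, Ikbkb, Ikbkg, Map3k14, markers) are for orientation, and those of the marker lists and of Il1rap, Il18r1, Cflar, Gadd45b and Lta were chosen after their values were seen.

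Same-numbered arrays deviated from their group means together (r = 0.572, 0.392, 0.54 and 0.541 across probe sets for numbers 1 to 4), each above the preset 0.1. The number was therefore used as a block in a fit beside the main one, which had no block. The labels do not explain this pairing. CD44hi 1 and CD44lo 3 correlated at 0.521, so what the arrays share is mainly whether the number is odd or even. Alternatives were this block, quantile normalization, median centring, 16 added before log2, a filter on dim probe sets, 1 probe set a gene, an intensity trend, array weights, subsets and averages of arrays, and leaving out each array. The interaction with the number and the averages with a block were added after the data were seen.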

Additional observations from a re-analysis of the deposited data

Results flagged for a closer look

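The difference between CD44hi and CD44lo in Map3k8 changed with the replicate number: it was 0.98 lower on the log2 scale at numbers 2 and 4 than at numbers 1 and 3 (interaction -0.98, SE 0.13, limma adjusted p = 0.0332). It was positive at 4 of 4 numbers. In 26 groups of 4 values of the 13 probe sets, 0 had an array far from the rest by Dixon's criterion at 95%, where chance alone would give about 1 in 20.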

How the results depend on the processing

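Against 3 NF-kappaB probe sets called higher and 0 lower, 5 were called higher with array weights, 5 from numbers 1 and 3 alone, 1 from 2 and 4, 0 at adjusted p under 0.01 (limma; 9 higher and 0 lower at an unadjusted p under 0.05), 0 with the arrays of numbers 1 and 3, and of 2 and 4, averaged (limma; 5 higher and 0 lower at an unadjusted p under 0.05), and 0 with these averages and the number set as a block (8 and 0 at an unadjusted p under 0.05), a fit added after the data were seen. Leaving out 1 array gave 1 to 3, with 1 without CD44hi replicate 3 and without each CD44lo replicate. The count of lower members after adjustment was 0 in each of these fits. With array weights 9 were higher and 1 lower at an unadjusted p under 0.05 (limma). Over all probe sets, 371 higher and 334 lower became 571 and 594 with the replicate block, 620 and 656 under array weights, 191 and 194 among the 11313 probe sets brighter than the median, 561 and 561 with numbers 1 and 3 alone, 14 and 2 with averaged arrays, 209 and 174 with averages and block, and 201 and 160 at adjusted p under 0.01. Numbers 2 and 4 alone gave 429 higher and 361 lower. With 1 probe set a gene (12393 tested) 220 were lower. Across the fits on 7 arrays, 256 to 347 were higher and 200 to 338 lower. The difference of Tnfaip3 turned to 0.02 with array weights, 0.11 with numbers 1 and 3 alone and 0.02 without CD44lo replicate 2, with a range of -0.16 to 0.02 when 1 array was left out. The replicate block changed no member's call other than that of Nfkbia 1448306_at (log2 difference 0.48, limma adjusted p = 0.0125). Of 267 values of single probe sets under alternatives 235 kept direction and side of the threshold, 23 lost the call, 6 gained it and 3 changed sign, all of Tnfaip3. Quantile normalization, median centring, 16 added before log2 and an intensity trend left 3 called. Only Rel and Nfkbib were called among probe sets brighter than the median, where Map3k8 and Tnfaip3 were not tested. The cause of these changes was not tested. Dim probe sets such as that of Tnfaip3 carry little signal over background, which limits what they can show.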
